A study of Homo sapiens with 12 samples.

Results

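Collagen genes were taken as every gene on the array whose symbol has the form COL, number, A, number, with antisense and pseudogene symbols left out. Of the 18417 gene symbols measured by probe sets annotated to exactly 1 symbol, 43 met this rule. They were carried by 45 probe sets, and the probe set with the highest mean over all arrays stood for each gene. The only gene with several was COL11A2, with 3, of which 2 hold identical values. Their transcripts were measured in U2OS-ERα cells, a human osteosarcoma line that carries estrogen receptor α, on 12 Affymetrix Human Gene 1.0 ST arrays. All cells received 50 nM siRNA by lipofection, and the next day medium with charcoal-stripped serum, so the controls share the transfection and the steroid-poor medium. The 4 groups of 3 biological replicates were non-targeting siRNA pool with ethanol vehicle (NT_V), non-targeting pool with 17β-estradiol (NT_E), SRC-1 siRNA pool with vehicle (siSRC-1_V) and SRC-1 siRNA pool with estradiol (siSRC-1_E), each treated for 3 h. The estradiol dose is not given in the sources used here, and all arrays come from 1 line and 1 siRNA pool against SRC-1, a coactivator of nuclear receptors whose gene is NCOA1. The replicates are labelled biological, and p-values measure the spread among them.

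Collagens are extracellular proteins whose chains carry hydroxylated prolines and lysines and wind into a helix. Fibrillar collagens such as type I, built from COL1A1 and COL1A2 chains, are trimmed outside the cell, pack into fibrils and are crosslinked through lysyl oxidases, and type I is the main protein of bone matrix. Type IV chains form the network of basement membranes, type VIII a hexagonal network, type VI beaded filaments, and the fibril-associated collagens (FACIT) sit on the surface of fibrils. The introduced receptor is a transcription factor that binds estradiol and recruits coactivators such as SRC-1. Whether the estradiol differences in these cells depend on it was not tested.

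The knockdown was visible in its target. NCOA1 averaged 8.79 log2 units with non-targeting siRNA and vehicle, 9.08 with estradiol, 5.86 with SRC-1 siRNA and vehicle, and 6.86 with SRC-1 siRNA and estradiol (n = 3 each), while ESR1 averaged between 12.03 and 12.16 in every group. The knockdown difference of NCOA1 was -2.93 under vehicle and -2.21 under estradiol. With estradiol after SRC-1 siRNA, NCOA1 itself was called higher by 1.00 (limma adjusted p = 0.00029). Its part in the collagen differences of that comparison was not tested. Over the tested probe sets, array medians lay between 6.85 and 6.92 and lower quartiles between 5.17 and 5.24. Replicate arrays had correlations of 0.995 to 0.997 over all 33297 probe sets, with those taken as controls. Of the osteoblast lineage markers measured, 5 of 6 were above the array median on all arrays; IBSP, a bone matrix protein, averaged 4.93, below the lower quartile. The mean level of this list lay between 8.225 and 8.284 on NT_V, 8.13 and 8.251 on NT_E, 8.061 and 8.137 on siSRC-1_V, and 7.978 and 8.045 on siSRC-1_E, lower with SRC-1 siRNA than with non-targeting siRNA without overlap under vehicle and under estradiol. Its members SPP1 and ALPL, which encode osteopontin and alkaline phosphatase, were called lower with SRC-1 siRNA under both treatments, by 0.71 and 0.87 for SPP1 and by 0.23 and 0.43 for ALPL. The other measured members were not called under vehicle or estradiol. They differed by 0.17 and 0.12 for RUNX2, 0.082 and 0.028 for IBSP, -0.12 and 0.0095 for SP7, and -0.048 and 0.025 for SPARC. The part of the lower list mean in the collagen differences was not tested. None of the 4 endothelial or 3 haematopoietic markers was above the median on all arrays. Of the 4 epithelial markers 2 were, the keratins KRT8 and KRT18, which averaged 11.16 and 11.91. The others, EPCAM and CDH1, averaged 7.35 and 5.92, CDH1 below the median on every array.

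RefSeq start sites (GRCh38.p14) were given for 31 of the 43 collagen genes, with 43 windows running from 250 bases before to 50 after the start. No collagen window held the palindromic estrogen response element GGTCA, any 3 bases, TGACC, read on both strands, and of all 35116 windows only 20 did (0.057%). The shorter extended site AGGTCA, which the palindrome can overlap, was in 1 collagen window, that of COL7A1 (2.33% of the collagen windows against 13.8% of all). The GC box GGGCGG was in 24 collagen windows (55.8% against 45.0%), CCAAT in 13 (30.2% against 34.6%) and TATAAA in 7 (16.3% against 11.5%), with each motif searched on both strands. The median GC content was 64.0% in the collagen windows and 58.7% in all. These are matches of letters in a short window and say nothing of binding. The windows below are shown for COL4A2, which shares its start region with COL4A1, for COL6A3 and COL16A1, whose transcripts moved in opposite directions with estradiol, and for LOXL4, the crosslinking enzyme with the highest estradiol response among the collagen pathway genes; capitals mark GC boxes and CCAAT, in either orientation.
COL4A2, chr13:110307034-110307333, plus strand: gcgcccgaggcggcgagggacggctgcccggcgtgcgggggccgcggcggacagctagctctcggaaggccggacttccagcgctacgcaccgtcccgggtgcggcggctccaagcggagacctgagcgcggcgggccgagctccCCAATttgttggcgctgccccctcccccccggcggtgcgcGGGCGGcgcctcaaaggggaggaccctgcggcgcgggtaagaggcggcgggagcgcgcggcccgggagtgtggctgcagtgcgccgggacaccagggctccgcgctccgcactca
COL6A3, chr2:237414115-237414414, minus strand: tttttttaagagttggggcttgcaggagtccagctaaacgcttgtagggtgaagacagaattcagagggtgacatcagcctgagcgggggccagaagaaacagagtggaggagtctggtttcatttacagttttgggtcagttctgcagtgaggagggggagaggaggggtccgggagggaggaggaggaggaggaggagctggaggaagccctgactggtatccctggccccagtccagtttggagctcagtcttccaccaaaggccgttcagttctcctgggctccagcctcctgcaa
COL16A1, chr1:31703968-31704267, minus strand: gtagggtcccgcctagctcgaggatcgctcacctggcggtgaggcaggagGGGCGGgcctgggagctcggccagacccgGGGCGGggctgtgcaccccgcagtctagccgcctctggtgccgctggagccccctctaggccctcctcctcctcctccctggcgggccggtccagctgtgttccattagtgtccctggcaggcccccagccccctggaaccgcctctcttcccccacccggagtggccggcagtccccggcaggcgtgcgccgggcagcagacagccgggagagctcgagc
LOXL4, chr10:98268145-98268444, minus strand: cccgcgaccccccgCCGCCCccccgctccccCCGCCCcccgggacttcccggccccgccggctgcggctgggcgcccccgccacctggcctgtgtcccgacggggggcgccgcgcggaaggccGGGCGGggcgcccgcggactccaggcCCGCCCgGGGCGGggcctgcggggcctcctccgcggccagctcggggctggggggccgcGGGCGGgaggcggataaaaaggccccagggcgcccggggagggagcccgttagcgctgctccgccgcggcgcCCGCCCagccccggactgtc
The COL4A2 window has 1 GC box and 1 CCAAT, the COL6A3 window has none of the 5 motifs, the COL16A1 window has 2 GC boxes and the LOXL4 window has 7. Each pair of type IV genes lies head to head on opposite strands. The starts of COL4A1 and COL4A2 are separated by 126 bases, so their windows share 226; those of COL4A5 and COL4A6 by 379, and those of COL4A3 and COL4A4 by 418.

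The collagen transcripts moved little between arrays. Of the 43, 20 were above the array median on all 12 arrays. COL1A2 and COL8A1 were above it on 0 arrays and COL3A1 on 2. COL6A5 and COL6A6, both type VI chains, were below the lower quartile on all 12 and COL14A1 on 3, so a signal above background cannot be claimed there. For the other genes a level above that quartile does not show signal over background either, which was not measured. The 3 skeletal muscle markers DES, MYOG and MYOD1 averaged 7.31, 7.01 and 5.98, and 1 of them was above the median on all arrays. The highest minus the lowest array was between 0.12 log2 units (COL6A2) and 0.70 (COL6A3), with a median of 0.33, and was under 0.5 in 41 of 43 genes. Levels of different genes come from different probes and are not set against each other. All 43 genes entered the tests and none was filtered out.

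A gene was called changed when its unadjusted p was under 0.01 and its p after Benjamini-Hochberg adjustment over the 29094 tested probe sets was under 0.05, in 1 limma fit to the 12 arrays. The 4 comparisons of single groups gave 2 collagen calls, both for estradiol after SRC-1 siRNA. With non-targeting siRNA, estradiol called 0 of 43 higher and 0 of 43 lower, where 1.85% and 0.873% of all tested probe sets were called; 2 of 43 had an unadjusted p under 0.05 (13.3% of all tested). With SRC-1 siRNA, estradiol called 0 higher and 2 lower (4.49% and 2.39% of all tested), and 17 of 43 had an unadjusted p under 0.05 (23.2%). That count of 2 was 0 when only the 6 compared arrays were fitted and 7 after renewed quantile normalization. SRC-1 siRNA called 0 higher and 0 lower under vehicle (0.265% and 0.945%), with 6 at an unadjusted p under 0.05 (12.7%), and 0 and 0 under estradiol (0.732% and 1.07%), with 5 (15.8%). All 43 intervals (95%) of each comparison lay within 1.5-fold, and their median reach to either side of the estimate was 0.143 log2 units. The difference of the estradiol effects between the siRNAs called no collagen gene and 0% of all probe sets; 3 of 43 had an unadjusted p under 0.05 (7.22% of all tested).

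**Figure D1:**
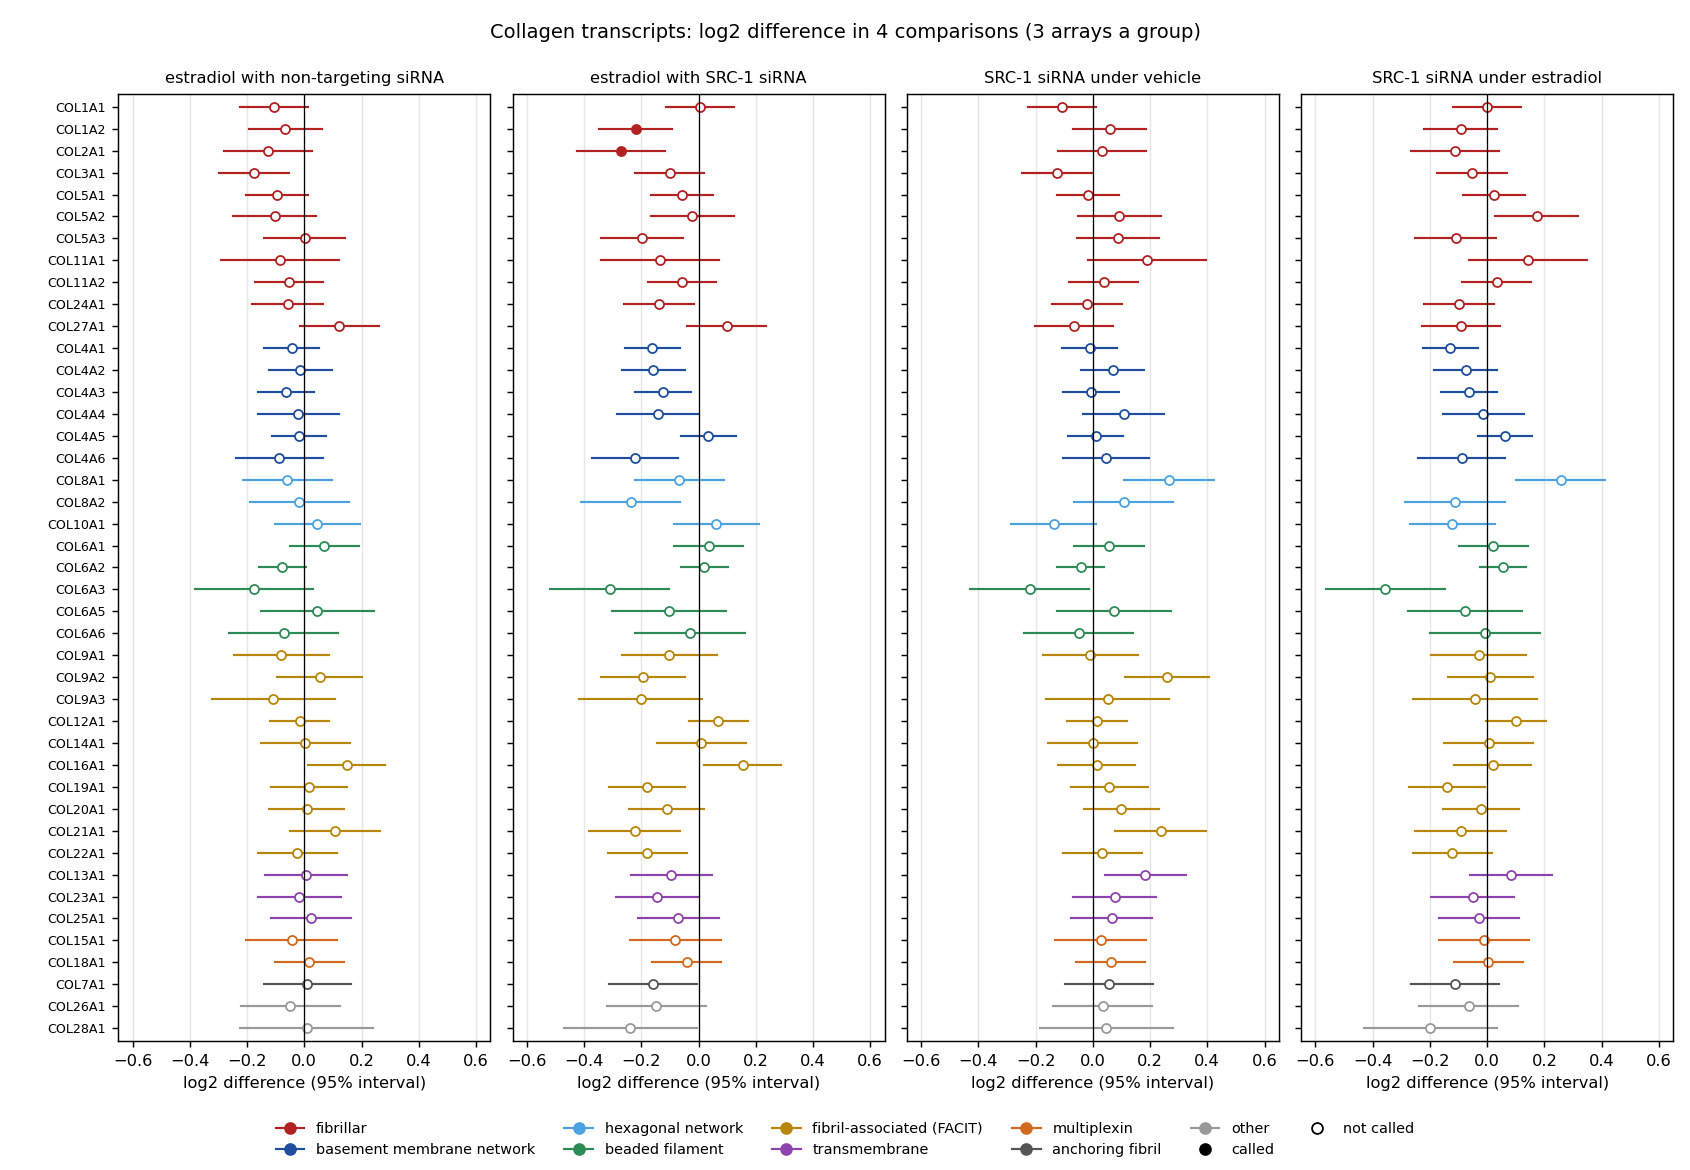
Log2 difference (points) with its 95% interval (lines) for the 43 collagen genes, coloured by class, in 4 comparisons of 3 arrays against 3; filled points were called. Of the 43 genes, 34 lie below 0 with estradiol after SRC-1 siRNA, and the only called genes there are COL1A2 and COL2A1.

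Averaging each effect over the other factor, which uses all 12 arrays, gave more calls. Averaged over both siRNAs, estradiol called 1 collagen gene higher, COL16A1, and 3 lower, COL2A1, COL3A1 and COL6A3, beside 6.11% and 3.85% of all tested probe sets. Leaving out 1 array, this total was again 4, though of other genes in part, without NT_V 1, siSRC-1_V 1 or siSRC-1_E 2, was 2 without NT_E 1, 1 without NT_V 2, NT_V 3, NT_E 2, NT_E 3, siSRC-1_V 3 or siSRC-1_E 1, and 0 without siSRC-1_V 2 or siSRC-1_E 3. Averaged over both treatments, SRC-1 siRNA called 1 higher, COL8A1, and 1 lower, COL6A3, beside 2.05% and 3.05%. These shares of 43 genes (2.33% and 6.98% for estradiol, 2.33% each way for SRC-1 siRNA) are near the background. The averaged and the single comparisons use the same arrays, and the estradiol and SRC-1 siRNA comparisons share groups.

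Among the fibrillar collagens, COL1A1, which encodes the α1 chain of type I, read 9.16, 9.31 and 9.13 on the NT_V arrays, 9.12, 9.02 and 9.14 on NT_E, 9.10, 9.08 and 9.08 on siSRC-1_V, and 9.08, 9.15 and 9.06 on siSRC-1_E. NT_V 2 was highest and the other 11 lay close together. Its estradiol difference was -0.11 (SE 0.054) for non-targeting and 0.0041 for SRC-1 siRNA, and neither was called. COL1A2, which encodes the partner chain, read 6.59, 6.73 and 6.67 on NT_V, 6.59, 6.59 and 6.60 on NT_E, 6.62, 6.73 and 6.81 on siSRC-1_V, and 6.44, 6.57 and 6.51 on siSRC-1_E. The siSRC-1_E arrays all lay below the siSRC-1_V arrays, while NT_V and NT_E overlapped. COL1A2 fell by 0.22 with estradiol after SRC-1 siRNA (SE 0.058, 95% interval -0.35 to -0.091, limma adjusted p = 0.047). With non-targeting siRNA the difference was -0.067.

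COL2A1, the chain of cartilage collagen, read 7.06, 7.31 and 7.14 on NT_V, 7.06, 7.08 and 6.98 on NT_E, 7.09, 7.31 and 7.21 on siSRC-1_V, and 6.91, 6.93 and 6.94 on siSRC-1_E. The siSRC-1_E arrays were the 3 lowest of the 12. With estradiol it fell by 0.27 after SRC-1 siRNA (SE 0.070, limma adjusted p = 0.041) and by 0.20 averaged over both siRNAs (SE 0.049, limma adjusted p = 0.027). COL3A1, a fibrillar chain found with type I in soft tissue, read 6.86, 6.99 and 6.95 on NT_V, 6.74, 6.81 and 6.71 on NT_E, 6.77, 6.85 and 6.80 on siSRC-1_V, and 6.65, 6.80 and 6.66 on siSRC-1_E. Its NT_V arrays were the 3 highest of the 12, and NT_E lay below them without overlap. With estradiol it fell by 0.14 averaged over both siRNAs (SE 0.039, limma adjusted p = 0.048), with differences of -0.18 and -0.10 for the non-targeting and SRC-1 siRNAs.

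The other 7 fibrillar genes were not called in any of the 7 contrasts. Their mean levels lay between 5.62 (COL24A1) and 8.20 (COL27A1). The median estradiol difference of the 11 fibrillar genes was -0.086 with non-targeting siRNA, with 9 of 11 below 0, and -0.10 with SRC-1 siRNA, again with 9 of 11 below 0; COL27A1 was above 0 in both, at 0.12 and 0.098.

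The fibrillar calls depended on which arrays were in the fit. The 2 calls after SRC-1 siRNA lay close to the threshold. Without a non-targeting array their differences stayed the same, and only the spread estimated from all arrays and the adjustment changed. Leaving out 1 array at a time, the COL1A2 call was kept in 2 of 12 fits (without siSRC-1_V 1 or siSRC-1_E 2), that of COL2A1 after SRC-1 siRNA in 3 (without NT_V 1, NT_V 2 or siSRC-1_V 1), that of COL2A1 averaged over both siRNAs in 6 (lost without NT_V 2, NT_E 3, siSRC-1_V 2, siSRC-1_V 3, siSRC-1_E 1 or siSRC-1_E 3), and that of COL3A1 in 3 (without NT_V 1, siSRC-1_V 1 or siSRC-1_E 2). The limma adjusted p lay between 0.019 and 0.16 for both calls after SRC-1 siRNA, between 0.012 and 0.066 for COL2A1 averaged over both siRNAs and between 0.021 and 0.11 for COL3A1, and every difference stayed below 0. Leaving out siSRC-1_V 1 raised the count of collagen genes called lower after SRC-1 siRNA from 2 to 5; it was 1 without NT_V 1, NT_E 3 or siSRC-1_E 1 and 0 without NT_V 3, NT_E 1, NT_E 2, siSRC-1_V 2, siSRC-1_V 3 or siSRC-1_E 3.

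**Figure D2:**
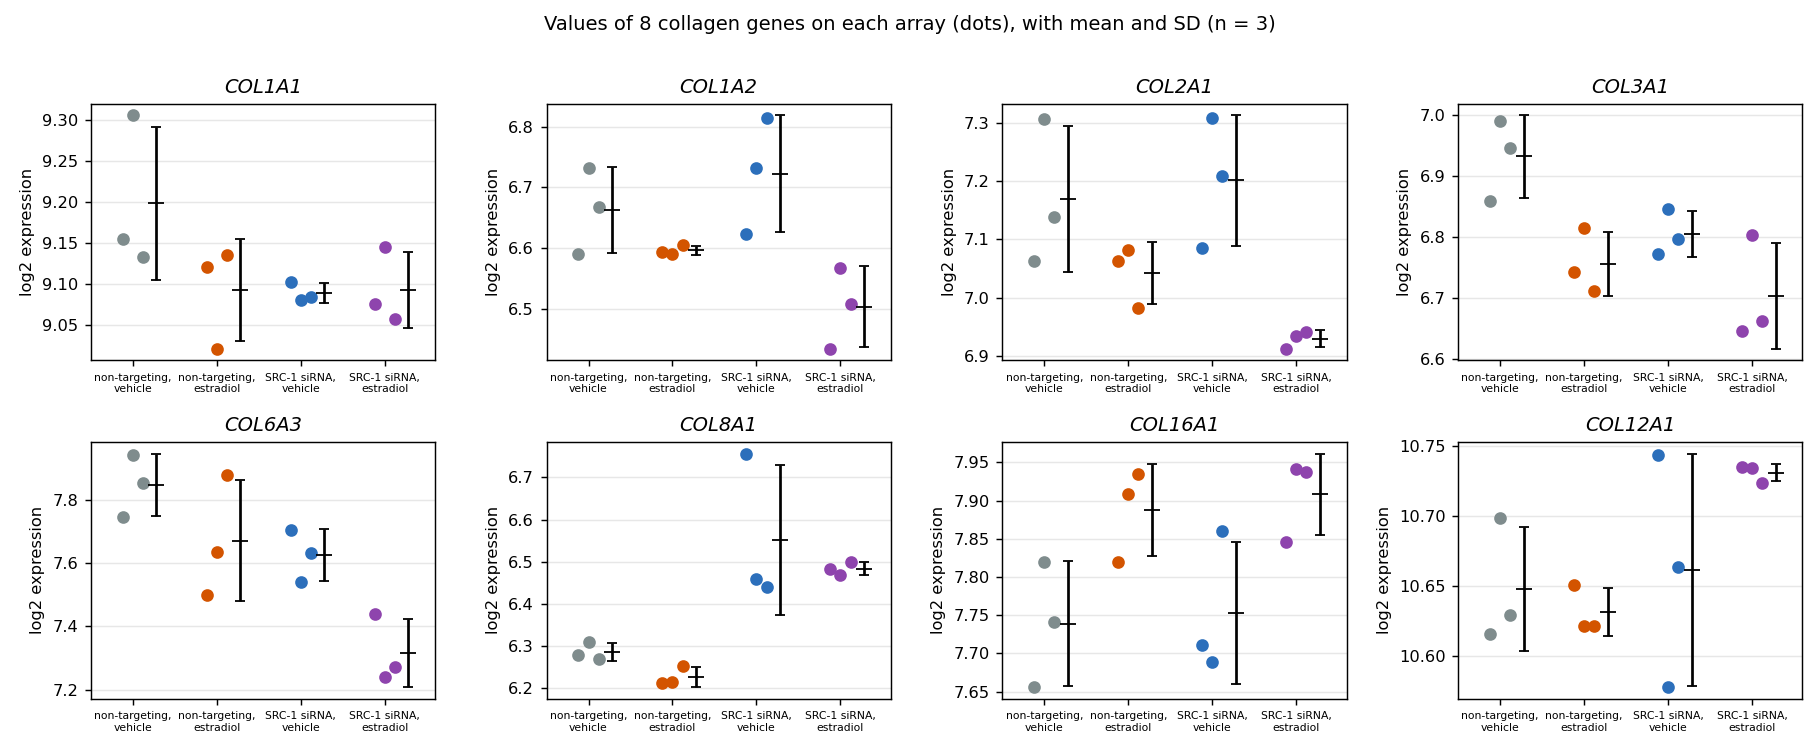
Log2 expression of 8 collagen genes on each array (dots, 3 per group), with the group mean and SD beside them; each panel has its own vertical range. COL8A1 is higher on all 6 SRC-1 siRNA arrays than on the 6 non-targeting arrays, and COL6A3 is lowest on the 3 siSRC-1_E arrays.

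Of the network collagens, COL4A1 and COL4A2 encode the most widespread type IV chains. COL4A1 read 8.28, 8.38 and 8.26 on NT_V, 8.30, 8.24 and 8.24 on NT_E, 8.28, 8.33 and 8.28 on siSRC-1_V, and 8.15, 8.14 and 8.11 on siSRC-1_E. COL4A2 read 8.95, 8.97 and 9.01 on NT_V, 8.99, 8.86 and 9.04 on NT_E, 9.06, 9.05 and 9.03 on siSRC-1_V, and 8.90, 8.85 and 8.91 on siSRC-1_E. For each, the siSRC-1_E arrays lay below the siSRC-1_V arrays without overlap. The estradiol difference after SRC-1 siRNA was -0.16 for COL4A1 (SE 0.044, limma adjusted p = 0.050) and -0.16 for COL4A2 (SE 0.050, limma adjusted p = 0.086), and neither was called. With non-targeting siRNA the differences were -0.044 and -0.014. The other 4 type IV genes were not called in any contrast. All 6 lay below 0 with estradiol and non-targeting siRNA (median -0.032) and 5 of 6 with SRC-1 siRNA (median -0.15).

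COL8A1, a chain of the hexagonal network, was higher after SRC-1 siRNA, at a level above the array median on 0 of the 12 arrays. It read 6.28, 6.31 and 6.27 on NT_V, 6.21, 6.21 and 6.25 on NT_E, 6.76, 6.46 and 6.44 on siSRC-1_V, and 6.48, 6.47 and 6.499 on siSRC-1_E. All 6 SRC-1 siRNA arrays lay above all 6 non-targeting arrays. The knockdown difference was 0.27 under vehicle (SE 0.071, limma adjusted p = 0.12) and 0.26 under estradiol (limma adjusted p = 0.10), and averaged over both treatments COL8A1 rose by 0.26 (SE 0.050, 95% interval 0.15 to 0.37, limma adjusted p = 0.014). The averaged call was kept in all 12 fits that left out 1 array; without siSRC-1_V 1, the highest array, the difference was 0.21. Its partner COL8A2 read 6.96, 7.09 and 7.14 on NT_V, 6.97, 7.15 and 7.02 on NT_E, 7.09, 7.24 and 7.19 on siSRC-1_V, and 6.78, 7.03 and 6.996 on siSRC-1_E. Its knockdown groups overlapped under each treatment, with differences of 0.11 and -0.11, while its estradiol difference after SRC-1 siRNA was -0.24 without overlap (limma adjusted p = 0.10, not called). COL10A1, the collagen of hypertrophic cartilage, was not called in any contrast.

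COL6A3, which encodes the α3 chain of type VI, had the largest range over the arrays among the 43. It read 7.74, 7.94 and 7.85 on NT_V, 7.499, 7.63 and 7.88 on NT_E, 7.70, 7.54 and 7.63 on siSRC-1_V, and 7.44, 7.24 and 7.27 on siSRC-1_E. The siSRC-1_E arrays were the 3 lowest of the 12, and the siSRC-1_V arrays lay below all NT_V arrays. With estradiol COL6A3 fell by 0.24 averaged over both siRNAs (SE 0.067, limma adjusted p = 0.042), and with SRC-1 siRNA it fell by 0.29 averaged over both treatments (SE 0.067, limma adjusted p = 0.033). The test of a difference between its estradiol effects gave no call, and the single comparisons gave -0.18 and -0.31 for estradiol and -0.22 and -0.36 for SRC-1 siRNA. Leaving out 1 array kept the estradiol call in 3 of 12 fits (without NT_V 1, NT_E 3 or siSRC-1_E 1) and the SRC-1 siRNA call in 5 (those and NT_E 1 or siSRC-1_V 1); the limma adjusted p lay between 0.0098 and 0.097 and between 0.019 and 0.077.

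COL6A1 and COL6A2 encode the chains that assemble with the α3 chain. COL6A1 read 9.06, 9.09 and 9.03 on NT_V, 9.07, 9.11 and 9.21 on NT_E, 9.12, 9.11 and 9.12 on siSRC-1_V, and 9.04, 9.21 and 9.21 on siSRC-1_E. COL6A2 read 9.14, 9.10 and 9.13 on NT_V, 9.03, 9.05 and 9.05 on NT_E, 9.11, 9.09 and 9.05 on siSRC-1_V, and 9.09, 9.12 and 9.09 on siSRC-1_E. Neither was called in any contrast, nor were COL6A5 and COL6A6. Averaged over both treatments, the SRC-1 siRNA difference was 0.039 for COL6A1 (95% interval -0.047 to 0.12) and 0.0068 for COL6A2 (95% interval -0.051 to 0.065), against -0.44 to -0.14 for COL6A3.

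Among the fibril-associated collagens, COL12A1, which binds type I fibrils, read 10.62, 10.70 and 10.63 on NT_V, 10.65, 10.62 and 10.62 on NT_E, 10.74, 10.58 and 10.66 on siSRC-1_V, and 10.74, 10.73 and 10.72 on siSRC-1_E. The estradiol groups did not overlap between the siRNAs, but the difference of 0.10 was not called. COL16A1 read 7.66, 7.82 and 7.74 on NT_V, 7.82, 7.91 and 7.93 on NT_E, 7.71, 7.69 and 7.86 on siSRC-1_V, and 7.85, 7.94 and 7.94 on siSRC-1_E. Only the non-targeting groups did not overlap between treatments, and they nearly touched, with NT_V 2 at 7.8191 and NT_E 1 at 7.8198. COL16A1 rose by 0.15 with estradiol averaged over both siRNAs (SE 0.043, 95% interval 0.057 to 0.25, limma adjusted p = 0.049), and the difference was 0.15 or 0.16 with each siRNA. Its call was kept in 3 of 12 fits that left out 1 array (without NT_V 2, NT_E 1 or siSRC-1_V 3), with limma adjusted p between 0.027 and 0.11. The other 8 members of the class, among them the 3 chains of type IX, were not called; COL9A2 was 0.26 higher with SRC-1 siRNA under vehicle (limma adjusted p = 0.11) and COL21A1 0.24 higher (limma adjusted p = 0.17), both without overlap.

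The remaining classes held no call. COL23A1, a transmembrane collagen, read 7.91, 8.03 and 7.99 on NT_V, 7.93, 7.92 and 8.02 on NT_E, 8.02, 8.14 and 8.0004 on siSRC-1_V, and 7.78, 7.92 and 8.02 on siSRC-1_E. COL18A1, the multiplexin whose fragment is endostatin, read 7.86, 8.06 and 8.003 on NT_V, 7.96, 8.01 and 8.01 on NT_E, 8.0001, 8.09 and 8.02 on siSRC-1_V, and 7.97, 8.02 and 7.999 on siSRC-1_E. For both, every pair of groups compared overlapped. COL7A1, the collagen of anchoring fibrils in skin, read 7.03, 7.14 and 7.11 on NT_V, 7.05, 7.18 and 7.09 on NT_E, 7.03, 7.22 and 7.21 on siSRC-1_V, and 6.90, 7.11 and 6.98 on siSRC-1_E. COL26A1 read 7.29, 7.47 and 7.31 on NT_V, 7.28, 7.29 and 7.35 on NT_E, 7.23, 7.56 and 7.37 on siSRC-1_V, and 7.18, 7.30 and 7.24 on siSRC-1_E. Their groups overlapped too; estradiol after SRC-1 siRNA gave -0.16 for COL7A1 and -0.15 for COL26A1, and the other 4 genes of these classes (COL13A1, COL25A1, COL15A1 and COL28A1) had no call.

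Fibrillar and other collagens were set side by side through the median over their genes. The median of the 11 fibrillar genes minus that of the 32 others was -0.069 for estradiol in the non-targeting cells, 0.016 for estradiol after SRC-1 siRNA, and -0.018 and -0.017 for SRC-1 siRNA under vehicle and estradiol. Taken on each single array from deviations, the fibrillar minus other median had a pooled SD within groups of 0.025. This SD is not the error of the 4 differences between groups. When 1 array was left out the first value lay between -0.10 and -0.042, the second between 0.016 and 0.060, the third between -0.054 and 0.018 and the fourth between -0.048 and 0.017. Against the 9 network genes (types IV, VIII and X), the fibrillar median of -0.086 with non-targeting siRNA stood beside -0.020, and -0.10 with SRC-1 siRNA stood beside -0.14.

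Across all classes, more collagen genes lay below than above 0 with estradiol after SRC-1 siRNA: 34 of 43, with a median of -0.11, where 55.3% of all tested probe sets lay below 0 with a median of -0.016. Within the level band of 4 to 8 log2 units, in which 34 of the 43 genes lie, 30 of 34 were below 0 with a median of -0.14, beside 62.9% and -0.048 for all tested probe sets of that band. Without overlap between the groups, 16 of 43 were lower and 0 higher (12.8% and 12.9% of all tested). With non-targeting siRNA, 27 of 43 were below 0 (median -0.020; 54.5% and -0.011 of all tested), and 7 were lower and 1 higher without overlap (10.9% and 10.1%). This balance moved with single arrays: 33 were below 0 without NT_V 1 (median -0.056), 28 without NT_E 3 (median -0.044), 29 without NT_E 2 (median -0.032) and 24 without NT_V 2 (median -0.0054). For SRC-1 siRNA, 13 of 43 were below 0 under vehicle (49.4% of all tested) and 28 under estradiol (52.5%), with 4 lower and 6 higher without overlap under vehicle (10.2% and 8.19%) and 5 lower and 4 higher under estradiol (11.5% and 10.7%).

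The probe sets taken as controls, none of which is assigned to a gene, moved with the treatment. Their array mean, as a deviation from the 12-array mean, was -0.076 ± 0.043 (SD, n = 3) on NT_V, 0.032 ± 0.036 on NT_E, -0.091 ± 0.067 on siSRC-1_V and 0.13 ± 0.042 on siSRC-1_E. With that array mean as a covariate, 22 of 43 collagen genes were below 0 for estradiol after SRC-1 siRNA (median -0.0025) and 14 of 43 with non-targeting siRNA (median 0.032), so the direction of the balance turned or was lost, and COL2A1 and COL3A1 changed sign; the median standard error of a collagen difference rose from 0.065 to 0.14 and 0.087. The covariate separates the treatments, and the part of this drift in the collagen differences was not tested. After renewed quantile normalization 38 of 43, and after median centring 33 of 43, were below 0 in the first of these comparisons.

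**Figure D3:**
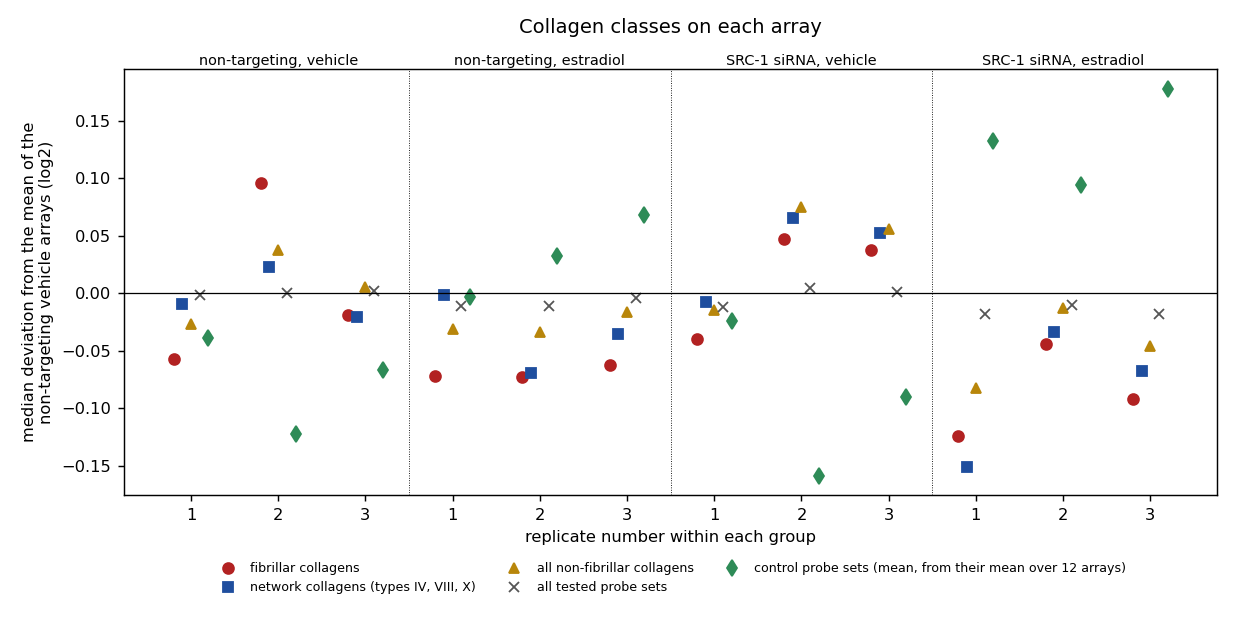
Median deviation (log2) of fibrillar, network and all non-fibrillar collagens and of all tested probe sets from the mean of the NT_V arrays, on each of the 12 arrays, with the mean of the control probe sets as its deviation from the 12-array mean. The control mean is between 0.094 and 0.18 on the siSRC-1_E arrays, where the fibrillar median is between -0.12 and -0.044.

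Genes whose products modify, crosslink, bind, sense or degrade collagen, or regulate its genes, included larger changes than any collagen gene. In 7 lists of such genes, 94 of 98 were measured. With estradiol, 9 were called with non-targeting siRNA (6 higher and 3 lower) and 13 with SRC-1 siRNA (9 higher and 4 lower); with SRC-1 siRNA, 4 were called under vehicle (1 higher and 3 lower) and 7 under estradiol (2 higher and 5 lower). Of all tested probe sets, the shares called higher and lower in these 4 comparisons were 1.85% and 0.873%, 4.49% and 2.39%, 0.265% and 0.945%, and 0.732% and 1.07%. The difference of the estradiol effects called none of them. Under vehicle the 4 became 2 to 4 when 1 array was left out.

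Of 6 crosslinking genes, 3 rose with estradiol with each siRNA: LOX, LOXL4 and TGM2. LOX, the lysyl oxidase that starts collagen crosslinks, read 9.39, 9.41 and 9.27 on NT_V, 10.55, 10.55 and 10.53 on NT_E, 9.89, 9.79 and 9.80 on siSRC-1_V, and 10.63, 10.62 and 10.59 on siSRC-1_E. No groups compared overlapped. LOX rose 2.28-fold with estradiol and non-targeting siRNA (log2 1.19, SE 0.047, limma adjusted p = 9.19e-08) and 1.73-fold after SRC-1 siRNA, and SRC-1 siRNA raised it 1.39-fold under vehicle (limma adjusted p = 0.00073). LOXL4, a related oxidase, read 7.68, 7.91 and 7.47 on NT_V, 9.78, 9.84 and 9.63 on NT_E, 7.89, 7.26 and 7.37 on siSRC-1_V, and 9.94, 9.81 and 9.77 on siSRC-1_E. Every estradiol array was above every vehicle array, with rises of 4.18-fold (limma adjusted p = 1.22e-05) and 5.03-fold (limma adjusted p = 4.04e-06). TGM2, a transglutaminase that links matrix proteins, rose by 0.40 and 0.38 with estradiol and was lower by 0.25 and 0.27 with SRC-1 siRNA, both called as falls; the vehicle call was lost without any 1 of NT_V 1, NT_V 3, siSRC-1_V 1 or siSRC-1_V 2, and the estradiol call without NT_E 2.

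**Figure D4:**
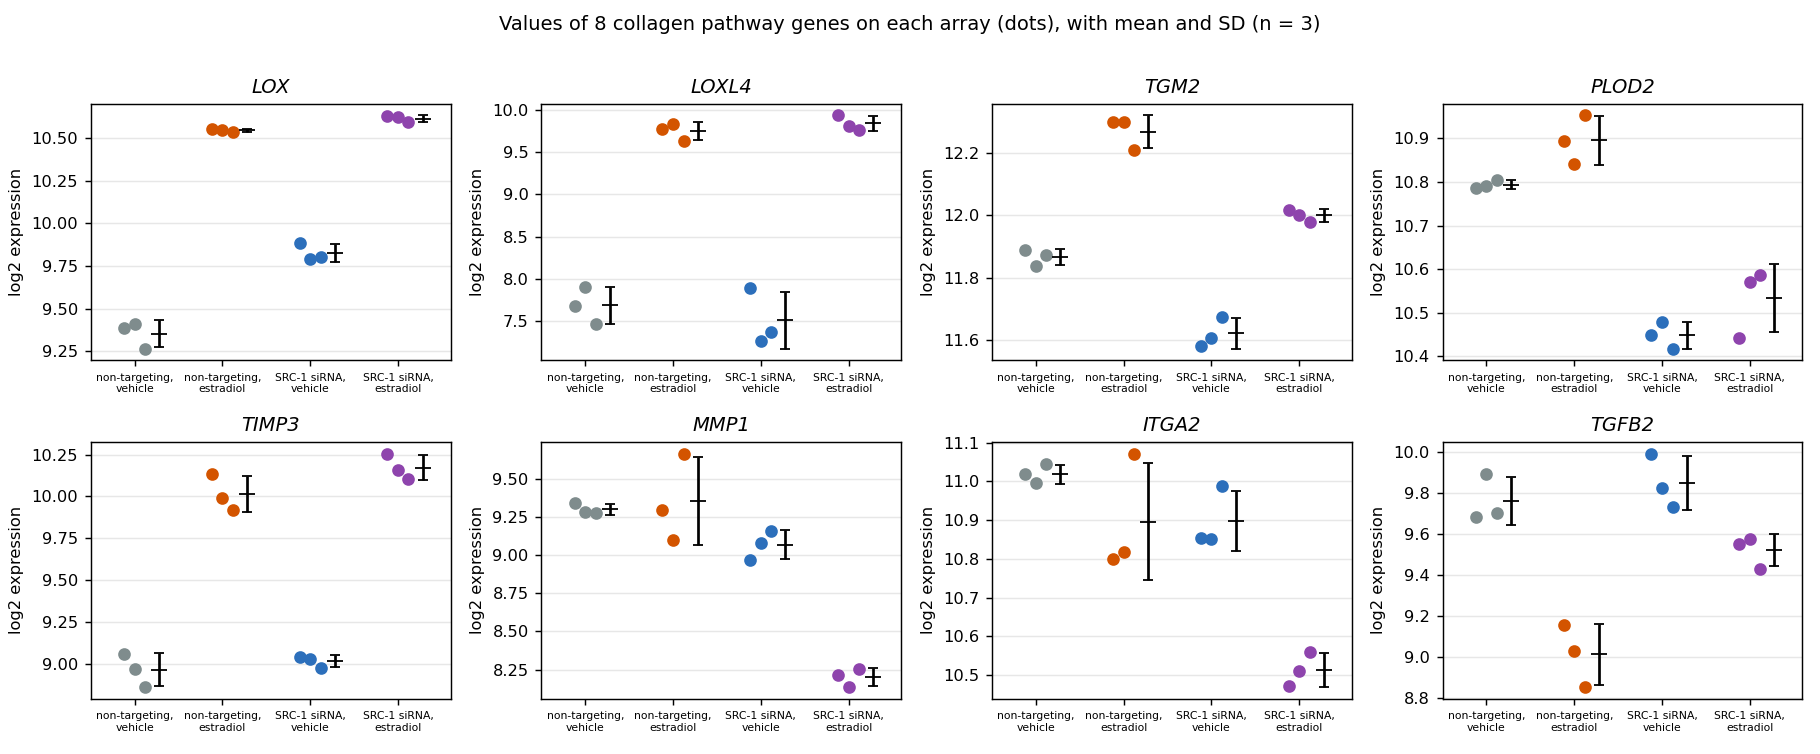
Log2 expression of 8 collagen pathway genes on each array (dots, 3 per group), with group mean and SD beside them; each panel has its own vertical range. LOX, LOXL4, TGM2 and TIMP3 are higher on estradiol arrays with each siRNA, and PLOD2 is lower on all SRC-1 siRNA arrays.

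Of 18 measured genes for chain hydroxylation and folding, SERPINH1, the collagen chaperone, rose by 0.16 with estradiol after SRC-1 siRNA (limma adjusted p = 0.049), a call kept only without siSRC-1_V 1 or siSRC-1_E 2 when 1 array was left out, and none was called with non-targeting siRNA. PLOD2, a lysyl hydroxylase of collagen telopeptides, read 10.79, 10.79 and 10.80 on NT_V, 10.89, 10.84 and 10.95 on NT_E, 10.45, 10.48 and 10.42 on siSRC-1_V, and 10.44, 10.57 and 10.59 on siSRC-1_E. All SRC-1 siRNA arrays lay below all non-targeting arrays. PLOD2 fell by 0.35 under vehicle (limma adjusted p = 0.0056) and by 0.36 under estradiol (limma adjusted p = 0.0038). Averaged over both treatments, P3H3, a homologue of the prolyl 3-hydroxylases, also fell by 0.16 and FKBP14, a prolyl isomerase, rose by 0.15; FKBP14 kept its call only without NT_V 1, siSRC-1_V 2 or siSRC-1_E 2 when 1 array was left out. Of 18 genes for secretion and propeptide cleavage, 0 were called in each of the 7 contrasts; SEC23A, a coat protein of secretory vesicles, and FURIN, a proprotein convertase, differed by -0.095 and -0.024 with estradiol and non-targeting siRNA.

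Among 14 measured fibril partners, THBS1, a matricellular glycoprotein, rose with estradiol by 0.37 and 0.40 and no other was called. Of 10 measured collagen receptors, ITGA2, the α2 integrin chain, fell by 0.38 with estradiol after SRC-1 siRNA, and with SRC-1 siRNA under estradiol it fell by 0.38 while GP6, the platelet receptor, rose by 0.36. That second ITGA2 call was lost without any 1 of the siSRC-1_E arrays. Of 11 genes for collagen breakdown, TIMP3, an inhibitor of metalloproteinases, read 9.06, 8.97 and 8.86 on NT_V, 10.13, 9.99 and 9.92 on NT_E, 9.04, 9.03 and 8.98 on siSRC-1_V, and 10.25, 10.16 and 10.10 on siSRC-1_E. Every estradiol array was above every vehicle array, with rises of 2.07-fold and 2.23-fold (limma adjusted p = 4.25e-06 and 1.91e-06). MMP1, a collagenase that cuts fibrillar collagen, read 9.35, 9.28 and 9.28 on NT_V, 9.30, 9.10 and 9.67 on NT_E, 8.97, 9.08 and 9.16 on siSRC-1_V, and 8.21, 8.14 and 8.25 on siSRC-1_E. The siSRC-1_E arrays stood below all others, and NT_E 3 was the highest of the 12. MMP1 fell by 0.87 with estradiol after SRC-1 siRNA (limma adjusted p = 0.00079) and by 1.16 with SRC-1 siRNA under estradiol (limma adjusted p = 0.00051). Its estradiol difference with non-targeting siRNA was 0.054, and the difference between the effects, -0.93, had an adjusted p of 0.39. MMP2, a gelatinase, fell by 0.18 with SRC-1 siRNA averaged over both treatments.

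Of 18 regulators of collagen genes, estradiol with non-targeting siRNA raised SOX9, the factor that drives COL2A1 in cartilage, by 0.28, and lowered TGFB2 by 0.75, CCN2 by 0.32 and ETS1 by 0.42. After SRC-1 siRNA, estradiol raised SMAD3 by 0.23, SMAD7 by 0.34 and SOX9 by 0.21 and lowered CCN2 by 0.34 and ETS1 by 0.44. TGFB1, the growth factor that induces collagen synthesis in many cells, fell by 0.28 with SRC-1 siRNA under vehicle and by 0.32 under estradiol, where TGFB2 rose by 0.51 (limma adjusted p = 0.018). CCN2 is a matricellular target of TGFβ signalling, SMAD3 and SMAD7 transmit and inhibit that signal, and ETS1 is a transcription factor. TGFB1 under vehicle lost its call without any 1 of NT_V 1, NT_V 2, NT_V 3, siSRC-1_V 2 or siSRC-1_V 3, TGFB2 under estradiol without NT_E 2, NT_E 3, siSRC-1_E 1 or siSRC-1_E 2, SMAD3 without siSRC-1_V 2, siSRC-1_V 3, siSRC-1_E 1 or siSRC-1_E 2, SMAD7 without siSRC-1_E 1 or siSRC-1_E 2, and SOX9 after SRC-1 siRNA without siSRC-1_V 2 or siSRC-1_E 2. In bulk RNA, a lower level in each cell and fewer cells that express a gene cannot be told apart.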

How the data were processed

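Per the labels and the design text, each probe set's deposited log2 expression value was made by the authors with the affy package and tested with limma, both also named in the submitters' processing notes; versions, background correction, normalization and summarization are not given in the sources used here. Nothing was renormalized. Among 33297 probe sets, the 4203 whose identifier is smaller than 7896740, the first with a gene, were left out as controls, an inference from the identifiers. Of the 29094 tested, 19460 carry 1 symbol, 1754 several and 7880 none; 19429 Entrez identifiers matched the reference annotation and 0 symbols changed. The model had 1 mean for each group and all 12 arrays (limma 3.58.1, R 4.3.3; prior 3.15 and 8 residual degrees of freedom), tests two-sided, with both thresholds of the design text (0.01 and 0.05); the fit was tested on simulated data. The collagen genes and lists were chosen with earlier results of these data known. Given on every array were collagen genes called in any of 7 contrasts, the gene with the highest mean of each class, and the chains of types I, IV (COL4A1, COL4A2) and VI (COL6A1 to COL6A3); of pathway lists, every called member or, with none called, up to 2 with the highest mean, a rule that only chose which genes were given. MMP1, LOX, LOXL4, TIMP3 and PLOD2 were given by array after their values were seen. Replicate numbers come from the titles. Deviations of same-numbered arrays correlated at -0.035 to 0.21, with 6 of 18 pairs over 0.1. Arrays of different numbers were not compared, so these values do not decide whether the numbers mark pairs. The main fit left the arrays unpaired. With the replicate block, the median standard error of a collagen difference between 2 groups was 0.056 instead of 0.065. The number of arrays limits the precision (median standard error of a difference over all probe sets 0.071). Alternatives were a replicate block, compared arrays only, the lowest 40% left out, quantile normalization, median centring, trended and robust variance, array weights, a control covariate, all probe sets tested, an adjusted p under 0.01, all collagen probe sets, and each array left out.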

Additional observations from a re-analysis of the deposited data

How the results depend on the processing

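Of the 8 called collagen differences, all but those of COL2A1 and COL3A1 kept their direction in 11 other settings, where they could be computed, and in 12 fits without 1 array. For estradiol after SRC-1 siRNA, with 2 collagen calls, the count was 0 with the compared arrays only, with the control covariate and at an adjusted p under 0.01, 1 with median centring and with all probe sets tested, 4 with trended and robust variances (COL2A1, COL4A1, COL4A2 and COL6A3), 5 with the lowest 40% of probe sets left out and 7 with renewed quantile normalization, and 0 to 5 without 1 array. For estradiol averaged over both siRNAs, with 4 calls, it was 2 with median centring, 1 with all probe sets tested, 0 with the covariate and at an adjusted p under 0.01, and 0 to 4 without 1 array. For SRC-1 siRNA averaged over both treatments, with 2 calls, it was 1 with the replicate block (COL8A1), 1 with the covariate (COL6A3), 0 at an adjusted p under 0.01, and 1 to 2 without 1 array. SRC-1 siRNA under vehicle, with 0 calls, gave 1 with the lowest 40% left out (COL9A2); under estradiol, with 0, it gave 2 there (COL6A3 and COL8A1), 1 with trended and robust variances, and 0 to 1 without 1 array.

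Apart from the threshold of 0.01, at which no collagen call in these contrasts was kept, the COL8A1 call was lost in 1 of 20 settings, with the covariate (limma adjusted p = 0.054); the COL6A3 call with SRC-1 siRNA was kept in 12 of 20, and COL2A1 averaged over both siRNAs in 13 of 20. With the covariate, COL2A1 turned to 0.068 after SRC-1 siRNA and 0.052 averaged over both siRNAs, and COL3A1 to 0.015; the cause was not tested. The fibrillar minus other median was 0.044 for estradiol after SRC-1 siRNA with the lowest 40% left out, and 0.035 for SRC-1 siRNA under estradiol with all collagen probe sets. Without 1 array it lay between -0.10 and -0.042 and between 0.016 and 0.060 for estradiol with the non-targeting and SRC-1 siRNAs, and between -0.054 and 0.018 and between -0.048 and 0.017 for SRC-1 siRNA under vehicle and estradiol.

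Pathway calls with the covariate fell to 3 of 13 for estradiol after SRC-1 siRNA (LOX, LOXL4 and TIMP3), to 1 of 7 for SRC-1 siRNA under estradiol (MMP1) and to 4 of 14 for estradiol averaged; the covariate fit has larger standard errors. With trended and robust variances SRC-1 siRNA averaged gave 19 instead of 12, and the difference of the estradiol effects 1 (LOX) instead of 0. SRC-1 siRNA under vehicle gave 2 to 4 without 1 array. The replicate block ended the COL6A3 calls of both averaged contrasts and the SERPINH1 calls for estradiol after SRC-1 siRNA and averaged, and changed no other count of collagen calls by over 1.5 times. Signal over background was not measured, and for COL6A5, COL6A6 and COL14A1 low signal limits what can be read.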

Other observations

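The antisense transcript COL18A1-AS1, left out of the collagen genes, read between 5.58 and 5.89 over the 12 arrays and was not called in any of the 7 contrasts. A probe set annotated to both PNLIP and COL1A2 read between 4.07 and 4.42 and was not called either.

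SPP1, which encodes the bone matrix protein osteopontin, averaged 9.84 on NT_V, 9.77 on NT_E, 9.13 on siSRC-1_V and 8.90 on siSRC-1_E (n = 3 each). It was called lower with SRC-1 siRNA under vehicle (limma adjusted p = 0.00054) and under estradiol (limma adjusted p = 8.21e-05). ALPL, which encodes alkaline phosphatase, averaged 7.73, 7.76, 7.496 and 7.34 in the same order and was called lower with SRC-1 siRNA under vehicle (limma adjusted p = 0.031) and under estradiol (limma adjusted p = 0.00089). SPARC, a collagen-binding protein of bone, averaged between 12.51 and 12.58 in the 4 groups, and RUNX2, the osteoblast transcription factor, between 7.04 and 7.40.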
